A study of Mus musculus with 6 samples.

Results

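Heat shock proteins and their partner chaperones were followed in whole hearts of mice aged 11 months, 3 with a cardiomyocyte-specific knockout of Ybx1 and 3 littermate controls. Values are given by heart, as controls 1 to 3 and knockouts 1 to 3. The genes were chosen by name: every protein-coding gene called Hspa, Hspb, Hspd, Hspe, Hsph or Hsp90, every Dnaj gene, Cryab, and every numbered Bag and Cct gene. The rule found 90 genes among the 78409 listed, 21807 of them protein-coding, and used no measured value. Of these, 79 had at least 1 CPM (the count scaled to the library's total) in at least 3 of the 6 libraries and were tested with all 13717 genes that passed this filter. The name rule also takes in Hspbp1 and Hspbap1, which encode binding partners and were kept apart from the families. It misses Tcp1, the remaining CCT subunit, which was read with a separate list of other chaperones.

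The knockout was aimed at Ybx1 in cardiomyocytes and not at the gene in the other cells of the heart. Whole-heart RNA does not show which cells hold any Ybx1 RNA that is left. The Cre driver, the alleles of the controls, the sex and the strain are not given in the sources used here, and each library is named as 1 heart. Ybx1 encodes a cold-shock-domain protein that binds RNA and DNA. The comparison asks what the loss of it in cardiomyocytes changes in the RNA of the ageing heart.

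Chaperones hold unfolded or partly folded proteins and let them fold, travel to an organelle or be handed to degradation. Small heat shock proteins hold unfolding clients without using ATP. HSP70 binds short exposed stretches under the control of J-domain proteins, which deliver clients and trigger ATP hydrolysis, and of nucleotide exchange factors such as the BAG and HSP110 proteins. HSP90 acts later on near-native clients such as kinases and steroid receptors, while the chaperonins HSP60 and CCT enclose a protein in a chamber. In cardiomyocytes, where contraction strains the sarcomere at every beat, αB-crystallin, HSPB8 and BAG3 are known for guarding the Z-disc, desmin and titin, and mutations in CRYAB or BAG3 cause myopathy in people. Heat shock factor 1 (HSF1) switches on many of these genes under proteotoxic stress through inverted repeats of the unit GAA, and stress of the endoplasmic reticulum (ER) acts through a separate element in the promoters of ER chaperones.

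The promoters below are shown because they carry the letters of these elements in genes whose levels are given later. Sequences are from RefSeq on GRCm38.p6, 5′ to 3′ on the strand of the gene, and 72 of the 90 genes matched an entry. Capitals mark the elements: GAANNTTC or TTCNNGAA for the heat shock element, both of which read the same on either strand, and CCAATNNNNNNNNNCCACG for the ER stress element, searched on both strands. Hspa1a (chr17:34972157-34972406, minus strand) and Hspa1b (chr17:34959239-34959488, minus strand), the inducible HSP70 genes, are shown as a pair because these 250 bases before the start site differ at 3 positions. Hspb1 (chr5:135887669-135887918, plus strand) holds 2 heat shock elements, 117 and 97 bases before its start. The stretch of Hspe1 (chr1:55088018-55088117, plus strand), from 130 to 31 bases before its start, holds overlapping elements that make a longer run and lies between Hspe1 and its neighbour Hspd1, which is read the other way. Hspa5 (chr2:34771840-34772089, plus strand) holds the ER stress element 65 bases before its start.
Hspa1a: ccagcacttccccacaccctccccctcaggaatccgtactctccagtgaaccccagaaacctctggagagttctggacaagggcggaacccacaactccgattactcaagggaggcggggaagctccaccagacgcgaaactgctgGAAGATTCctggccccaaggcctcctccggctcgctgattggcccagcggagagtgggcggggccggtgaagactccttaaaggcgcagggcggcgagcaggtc
Hspa1b: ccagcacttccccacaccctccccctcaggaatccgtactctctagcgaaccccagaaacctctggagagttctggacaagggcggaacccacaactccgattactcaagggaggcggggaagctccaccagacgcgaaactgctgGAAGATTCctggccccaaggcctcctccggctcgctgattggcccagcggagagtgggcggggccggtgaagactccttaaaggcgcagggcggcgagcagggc
Hspb1: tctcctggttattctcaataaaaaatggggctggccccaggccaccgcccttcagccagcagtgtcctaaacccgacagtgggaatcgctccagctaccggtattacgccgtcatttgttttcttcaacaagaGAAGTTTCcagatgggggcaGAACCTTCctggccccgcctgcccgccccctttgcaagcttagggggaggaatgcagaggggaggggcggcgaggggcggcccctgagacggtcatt
Hspe1: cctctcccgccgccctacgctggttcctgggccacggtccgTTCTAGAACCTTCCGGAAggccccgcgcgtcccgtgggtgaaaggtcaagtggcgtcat
Hspa5: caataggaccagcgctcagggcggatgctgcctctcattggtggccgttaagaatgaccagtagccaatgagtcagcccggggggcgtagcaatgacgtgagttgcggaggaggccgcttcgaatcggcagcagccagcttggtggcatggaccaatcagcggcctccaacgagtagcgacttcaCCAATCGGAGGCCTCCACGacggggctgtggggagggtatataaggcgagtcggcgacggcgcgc

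Over 250 bases before to 50 after the start site, the heat shock element was found in 21 of the 72 genes with a promoter entry (29.2%), and in 17.0% of all 27025 genes in the table. A run of 3 units (GAANNTTCNNGAA or TTCNNGAANNTTC) was found in 4, Dnajb6, Hspd1, Hspe1 and Hsph1, and in 0.662% of all genes. Hspd1 and Hspe1 share 2 overlapping runs of this kind on opposite strands, found 144 and 139 bases before an Hspd1 start and 89 and 84 bases before the Hspe1 start. The ER stress element was found in Dnajc3, Hsp90b1 and Hspa5, which all encode ER proteins, and in 0.137% of all genes. These are matches of letters in this window. They do not say which factor binds there.

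The deposited counts summed to between 12270796 and 15141525 per library, so that a gene with 0 counts could still be present at up to 0.244 CPM in the shallowest (3 counts, counting error only). Ybx1 was at 849, 810 and 895 normalised CPM in controls 1 to 3 and at 203, 171 and 110 in knockouts 1 to 3, which is 18.9% of the control mean. The groups did not overlap (log2 fold change -2.40, SE 0.27), and the adjusted p by edgeR's quasi-likelihood test was 0.148, above the threshold of 0.05. In bulk tissue, fewer cells of a type and less RNA per cell cannot be told apart. The summed level of 9 ventricular cardiomyocyte markers was 21259 to 25397 normalised CPM in the controls and 18071 to 24471 in the knockouts, none of them at 0. Knockout heart 3 stood apart from the other libraries: 10.7% of its counts were mitochondrial rRNA against 20.5% to 26.3% in the other 5, and its Malat1, a nuclear RNA, was at 668 deposited CPM against 3317 to 7923. Results that rest on this heart are therefore given with and without it.

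No chaperone gene passed the test between knockout and control hearts, and the summed level of all of them overlapped between the groups. Adding the 79 tested genes gave 6145, 5946 and 6819 normalised CPM in controls 1 to 3 and 5950, 7059 and 7198 in knockouts 1 to 3. The groups overlapped, with the lowest sum in control heart 2, closely followed by knockout heart 1. By edgeR's quasi-likelihood test with Benjamini-Hochberg adjustment over all genes, 0 of 79 chaperone genes and 0 of 13717 genes (0%) had an adjusted p below 0.05, and by DESeq2 0 of 79 and 15 genes in all (0.109%). At an unadjusted p below 0.05, 2 chaperone genes were higher and 1 was lower in the knockouts, beside 2.69% higher and 2.45% lower among all tested genes. Hspbp1 and Dnajc24 were the 2 higher genes and Dnajc25 the lower one, a share no larger than the background. The 95% interval of the fold change lay within 2-fold either way for 57 of 79 chaperone genes (72.2%) and for 63.5% of all tested genes. These p-values measure the spread between these hearts, and an exact permutation test of 3 against 3 cannot give a p below 0.1.

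The direction of the differences was uneven. The log2 fold change was above 0 for 54 of 79 chaperone genes (68.4%) and below 0 for 25, while it was above 0 for 51.1% of all tested genes and 54.4% of the protein-coding ones. The median was 0.15 for the chaperone genes, 0.01 for all tested genes and 0.04 for the protein-coding ones. Knockout heart 3 was often the extreme heart: 39 of the 79 genes (49.4%) had their highest level there, against 33.9% of all tested genes, and 13 (16.5%) their lowest, against 34.3%. Without that heart 49 genes were above 0 and 30 below, with a median of 0.07 beside -0.01 for all tested genes, of which 48.5% were above 0. Control heart 2 had the lowest level of 29 of the 79 genes (36.7%), against 25.2% of all tested genes. Without it 50 genes were above 0 and 29 below, again with a median of 0.07, and 50.8% of all tested genes were above 0. With no scaling factors between libraries the median of all tested genes moved to 0.17, with 67.1% of them above 0. In that setting 67 chaperone genes were above 0 and 12 below, with a median of 0.31. In 39 genes the fold change was above 0 with all libraries and in each of the 6 fits that left out 1 heart, in 14 it was below 0 throughout, and in 26 the sign differed in at least 1 of these fits. The same counts were not made over all tested genes, so these are no result about chaperones.

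In 7 chaperone genes every knockout heart was above every control heart (8.86%, beside 6.26% of all tested genes), and in 5 every knockout heart was below (6.33%, beside 5.82%). The 7 were Cct8, Dnaja4, Dnajb4, Dnajc16, Dnajc9, Hspa1l and Hspbp1, and the 5 were Bag4, Dnajb14, Dnajb2, Dnajc21 and Dnajc25. Both shares are near the background, so the absence of overlap in these 12 is no result about chaperones.

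**Figure D1:**
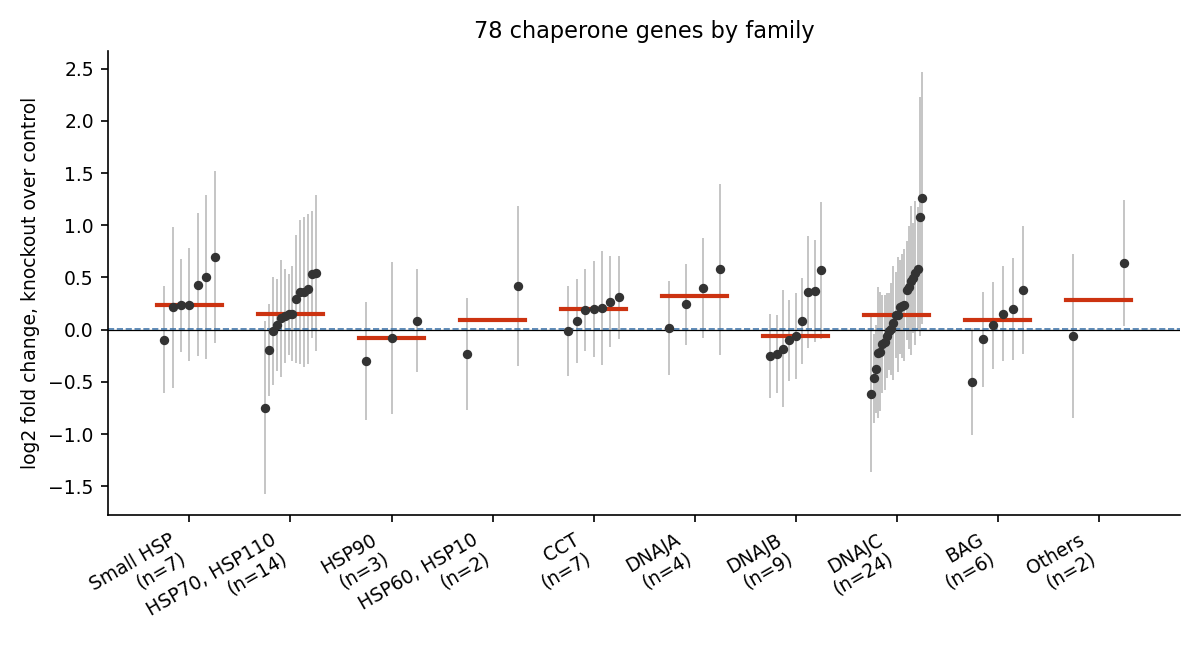
Log2 fold change of 78 tested chaperone genes, knockout over control, by family (x axis); each point is a gene, grey bars are 95% confidence intervals, red lines are family medians and the dashed line is the median of all tested genes (0.01). Family medians run from -0.08 (HSP90) to 0.32 (DNAJA), and the intervals of all genes but Dnajc24, Dnajc25 and Hspbp1 include 0.

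A few genes took most of the chaperone reads of these hearts. Hsp90ab1 alone held 26.6% of the summed control level, and together with Cryab, Hspa8 and Hspa9 it held 49.9%. The 12 genes above 100 CPM in the controls held 73.5%, and 23 of the 79 were at or below 10 CPM. Scaled by the length of the annotated exons, Hsp90ab1 (559 CPM per kb) and Cryab (406) led in control hearts, followed by Hspa8 (108), Hspb8 (102), Hspa9 (93.3), Hspb6 (82.8) and Bag1 (74.9). The SD over the 3 control hearts was 125 CPM per kb for Cryab, 13.1 for Hspb8 and 26.2 for Hspb6, so Hspa8, Hspb8, Hspa9 and Hspb6 cannot be ordered among themselves beyond their spread. In the knockouts the means were 656 ± 279 CPM per kb for Cryab and 455 ± 108 for Hsp90ab1 (SD, n = 3). By family, the HSP90 genes held 34.0% of the summed level, HSP70 and HSP110 20.1%, the small heat shock proteins 18.3%, the DNAJC genes 7.14% and CCT 6.61%.

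The small heat shock genes varied widely from heart to heart, and their levels overlapped between knockouts and controls. Cryab, which encodes αB-crystallin and is among the most abundant chaperones of striated muscle (ENSMUSG00000032060), was at 628, 403 and 769.7 normalised CPM in controls 1 to 3 and at 576, 937 and 1399 in knockouts 1 to 3. The highest level was in knockout heart 3, and the groups overlapped, since knockout heart 1 was below control hearts 1 and 3. Its log2 fold change was 0.69, with an interval of -0.13 to 1.52 and an adjusted p of 0.694 by edgeR, and it was 0.33 without knockout heart 3. Hspb1, which encodes the actin-protecting HSP25, was at 41.9, 29.7 and 59.5 normalised CPM in controls 1 to 3 and at 38.3, 59.6 and 88.7 in knockouts 1 to 3. It was again lowest in control heart 2 and highest in knockout heart 3, with a log2 fold change of 0.51 (interval -0.28 to 1.29) and of 0.16 without that heart. The ratio of Cryab to Hspb1, taken up after the values were seen, was 14.97, 13.6 and 12.9 in the controls and 15.02, 15.7 and 15.8 in the knockouts. The groups did not overlap in it, which is no support for a difference, because the ratio was picked from these same values.

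Hspb6, whose HSP20 protein is known for protecting the heart under β-adrenergic stimulation, was at 176, 139 and 256 normalised CPM in controls 1 to 3 and at 130.5, 295 and 236 in knockouts 1 to 3. Control heart 3 exceeded knockout hearts 1 and 3, so the groups overlapped widely (log2 fold change 0.21). Hspb7, the cardiovascular small heat shock protein, was at 81.8, 63.5 and 102 normalised CPM in controls 1 to 3 and at 88.6, 119 and 85.3 in knockouts 1 to 3, with a log2 fold change of 0.24 that was 0.06 without knockout heart 2 and 0.07 without control heart 2. Hspb8, the partner of BAG3 in chaperone-assisted autophagy, was at 212, 170.0 and 216 normalised CPM in controls 1 to 3 and at 210.0, 262 and 231 in knockouts 1 to 3. Knockout heart 1 lay below control hearts 1 and 3 (log2 fold change 0.23, interval -0.22 to 0.68, 0.12 without control heart 2). Hspb3, a subunit of the muscle complex with HSPB2, was at 3.31, 3.41 and 5.62 in the controls and 4.47, 4.92 and 7.32 in the knockouts (log2 fold change 0.43, 0.17 without knockout heart 3).

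Hspb2 was the 1 member of the family whose log2 fold change was below 0, at -0.10, and the sign changed with the scaling and with the heart left out. It was at 28.4, 33.1 and 35.9 normalised CPM in controls 1 to 3 and at 22.0, 36.0 and 33.1 in knockouts 1 to 3, levels that overlapped throughout. Hspb2 and Cryab lie head to head on chromosome 9 and their annotated exons overlap on opposite strands, so that 24.4% of the 50-base stretches of Hspb2 also occur in Cryab. The library protocol marks no strand, and reads in that overlap could not be told apart. The ratio of Cryab to Hspb2 was 22.1, 12.2 and 21.4 in the controls and 26.2, 26.0 and 42.3 in the knockouts. The groups did not overlap in this ratio, which was chosen after its values were seen, so the separation is no support for a difference. Of the 6 ratios computed, Hsp90ab1 over Hsp90aa1, Hspa8 over Hspa1a and Bag3 over Hspb8 overlapped between the groups. Of the 8 small heat shock genes 7 were tested, 6 with a log2 fold change above 0 and 1 below, with a median of 0.24 and of 0.17 without knockout heart 3. Hspb9, a gene of the testis, had 0 counts in all libraries. The summed level of the family was 1171, 842 and 1445 normalised CPM in controls 1 to 3 and 1070, 1713 and 2081 in knockouts 1 to 3, with 2 knockout hearts above all controls and 1 below 2 of them.

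**Figure D2:**
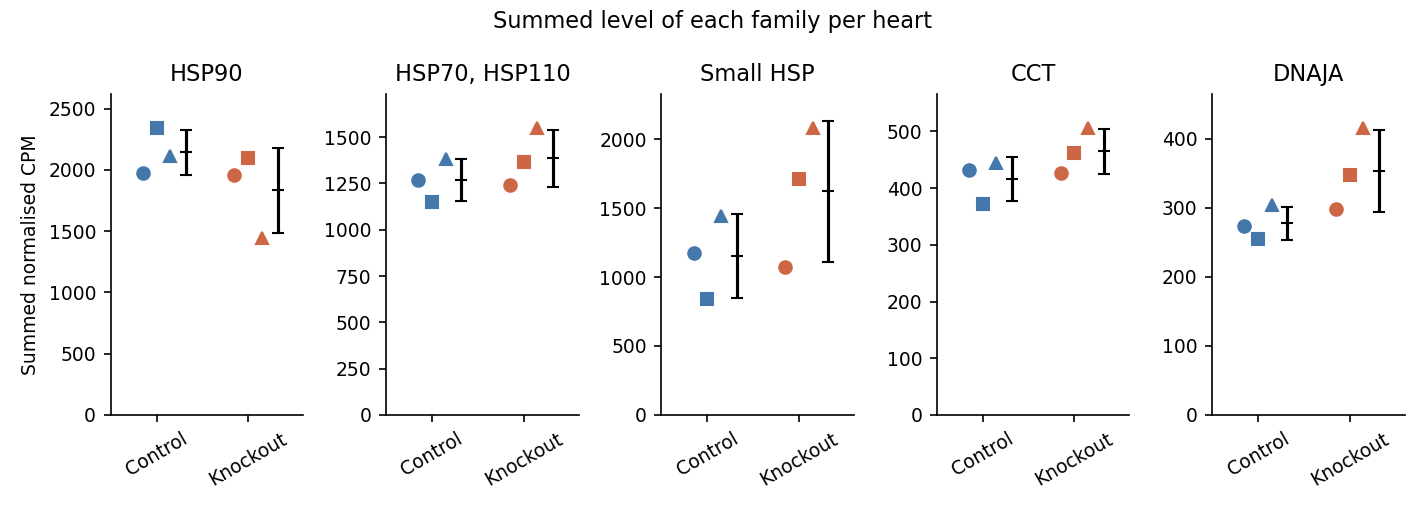
Summed normalised CPM of 5 chaperone families in each heart (circle, square and triangle are hearts 1, 2 and 3; blue control, orange knockout), with the mean and SD of each group beside the points and y axes from 0. Knockout heart 3 has the highest small heat shock sum (2081) and the lowest HSP90 sum (1444).

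No HSP70 gene passed the test, and their log2 fold changes ran from -0.75 to 0.54. Hspa8, the constitutive HSC70 and the leading HSP70 gene of the cytosol in these hearts, was at 494, 425 and 480.4 normalised CPM in controls 1 to 3 and at 575, 495 and 460.0 in knockouts 1 to 3. Its levels overlapped between the groups and were highest in knockout heart 1, for a log2 fold change of 0.13 (interval -0.32 to 0.58, edgeR adjusted p 0.81). Hspa9, which encodes mortalin, the HSP70 that pulls proteins into mitochondria, was at 375, 377 and 454 normalised CPM in controls 1 to 3 and at 300.4, 437 and 456 in knockouts 1 to 3. Knockout heart 1 was the lowest of all and the other 2 knockout hearts were near control heart 3 (log2 fold change -0.02, with a sign that changed between settings). Both intervals stayed within 1.5-fold either way.

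The inducible pair was near the low end of the measured range. Hspa1a was at 3.63, 4.05 and 2.18 normalised CPM in controls 1 to 3 and at 5.56, 3.25 and 3.99 in knockouts 1 to 3, and Hspa1b was at 4.19, 3.32 and 2.58 normalised CPM in controls 1 to 3 and at 6.30, 5.45 and 2.99 in knockouts 1 to 3. In both genes knockout heart 1 was the highest library and the groups overlapped (log2 fold changes 0.39 and 0.54). The transcripts are near copies, with 58.8% of the 50-base stretches of Hspa1a also found in Hspa1b, so the split of reads between them is uncertain. Their sum was at 7.82, 7.46 and 4.76 in the controls and 11.9, 8.70 and 6.98 in the knockouts, with a log2 fold change of 0.47.

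Hspa1l, best known from the testis and the neighbour of Hspa1a on chromosome 17, was at 1.85, 2.21 and 2.78 normalised CPM in controls 1 to 3 and at 2.85, 3.48 and 3.60 in knockouts 1 to 3. Every knockout heart was above every control heart, by 0.53 on the log2 scale (interval -0.08 to 1.14, unadjusted p 0.0794, adjusted p 0.694 by edgeR). The gene Gm10501 covers 71.9% of its exons on the opposite strand, so its reads are uncertain. Hsph1, the HSP110 that exchanges the nucleotide of HSP70, was at 35.9, 31.3 and 33.7 normalised CPM in controls 1 to 3 and at 39.3, 43.9 and 29.2 in knockouts 1 to 3. Knockout hearts 1 and 2 were above all controls and knockout heart 3 below them all (log2 fold change 0.15, 0.30 without it). Hspa12b, a distant HSP70 relative known from endothelium, had the log2 fold change farthest below 0 of all 79 genes, at -0.75 (unadjusted p 0.0715, adjusted p 0.694 by edgeR). It was at 9.44, 21.5 and 12.8 in the controls and 11.9, 8.77 and 5.38 in the knockouts, where control heart 2 was high and the groups overlapped. The log2 fold change was -0.38 without control heart 2 and -0.49 without knockout heart 3. The summed level of 5 endothelial markers was 1036 to 1431 in the controls and 788 to 1729 in the knockouts, also with overlap, and its part in the level of Hspa12b was not tested. All 14 HSP70 and HSP110 genes were tested, 11 above 0 and 3 below, with a median of 0.15 and of 0.07 without knockout heart 3.

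The cytosolic HSP90 genes were lowest in knockout heart 3, the heart in which Cryab and Hspb1 were highest. Hsp90ab1, the constitutive cytosolic form and the leading chaperone mRNA per length in the controls, was at 1522, 1859 and 1645 normalised CPM in controls 1 to 3 and at 1459, 1629 and 1004 in knockouts 1 to 3. Knockout heart 3 was the lowest by a wide margin, and the other 2 knockout hearts were within or just below the control range (log2 fold change -0.30, interval -0.86 to 0.27, -0.12 without that heart). Hsp90aa1, the inducible form, was at 202, 261 and 202 normalised CPM in controls 1 to 3 and at 270.2, 246 and 113 in knockouts 1 to 3. It too was lowest in knockout heart 3, while knockout heart 1 was the highest of all. Its log2 fold change was -0.08 with all libraries and 0.22 without that heart, a change of sign. Of its 50-base stretches 47.5% occur elsewhere, mostly in the pseudogene Gm12346, and adding the counts of that copy left the log2 fold change at -0.08. The summed level of the 3 genes was 1974, 2343 and 2112 in controls 1 to 3 and 1960, 2099.9 and 1444 in knockouts 1 to 3.

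Of 5 chaperone genes of the ER, the third HSP90 gene among them, 4 had their highest level in knockout heart 3, as did 33.9% of all tested genes. J-domain genes of the ER outside these 5 went both ways. Dnajc1 (21.7 normalised CPM) and Dnajb14 (11.0) were lowest in that heart and Dnajc10 (27.4) was highest. Most ER genes of the separate list were also highest there, while Calr and Sil1 were lowest. Hspa5, which encodes BiP, the HSP70 of the ER lumen, was at 260.5, 209 and 301 normalised CPM in controls 1 to 3 and at 218, 279 and 494 in knockouts 1 to 3. All but the last value lay within 209 to 301, so the log2 fold change of 0.36 (interval -0.36 to 1.08) became -0.05 without that heart. Hsp90b1, the ER form GRP94, was at 250.5, 223 and 265 normalised CPM in controls 1 to 3 and at 231, 225 and 327 in knockouts 1 to 3, and its log2 fold change of 0.09 likewise became -0.11. Dnajb9, the J-domain protein that restrains the stress sensor IRE1, was at 9.52, 10.1 and 12.6 normalised CPM in controls 1 to 3 and at 10.8, 13.8 and 23.1 in knockouts 1 to 3 (log2 fold change 0.57, 0.20 without knockout heart 3). Dnajb11, a J-domain partner of BiP, was at 19.5, 17.2 and 24.2 in the controls and 20.3, 24.5 and 33.6 in the knockouts, again with its highest value in knockout heart 3. Dnajc3, an ER J-domain protein known as p58IPK, was at 34.5, 31.1 and 30.4 in the controls and 46.1, 33.0 and 32.6 in the knockouts and differed in pattern, since its highest value was in knockout heart 1. Of these 5 genes Hspa5, Hsp90b1 and Dnajc3 carry the ER stress element shown above for Hspa5. All 3 had a log2 fold change above 0 with all libraries, and 1 did without knockout heart 3.

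The genes of the mitochondrial chaperonin and its lid each overlapped between the groups, with log2 fold changes on either side of 0. Hspd1, which encodes HSP60, was at 105, 72.1 and 108 normalised CPM in controls 1 to 3 and at 68.9, 74.7 and 100.5 in knockouts 1 to 3. The lowest values were those of knockout heart 1, control heart 2 and knockout heart 2 (log2 fold change -0.23, interval -0.76 to 0.31, -0.41 without knockout heart 3). Hspe1, which encodes the lid HSP10, was at 37.6, 32.7 and 49.9 normalised CPM in controls 1 to 3 and at 31.8, 47.0 and 81.8 in knockouts 1 to 3. It was highest in knockout heart 3, and its log2 fold change of 0.42 became -0.02 without that heart. The ratio of Hspe1 to Hspd1, chosen after its values were seen, was 0.356, 0.453 and 0.460 in the controls and 0.462, 0.630 and 0.814 in the knockouts. The groups did not overlap, though the gap ran only from 0.460 to 0.462. A ratio picked from its own values gives no support for a difference. The genes start beside each other on chromosome 1, and both transcripts have copies in the genome. Their annotated exons overlap by 112 bases on opposite strands, where reads could not be told apart. Adding Hspd1-ps3 gave a log2 fold change of -0.27 for Hspd1. Dnaja3, the mitochondrial J-domain partner of mortalin, was at 28.7, 18.7 and 38.4 normalised CPM in controls 1 to 3 and at 28.5, 34.3 and 65.3 in knockouts 1 to 3. Its spread within groups was among the 3 largest, and knockout heart 3 held the highest value (log2 fold change 0.58, 0.13 without it). Dnajc19, part of the import motor of the inner membrane and mutated in a human dilated cardiomyopathy with ataxia, was at 16.1, 14.5 and 16.4 normalised CPM in controls 1 to 3 and at 16.8, 14.4 and 33.8 in knockouts 1 to 3. The 3 controls and the other 2 knockout hearts lay between 14.4 and 16.8, so its log2 fold change of 0.47 became -0.01 without knockout heart 3.

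The CCT ring, which folds actin and tubulin, varied little. The 7 tested subunits had control levels of 7.10 to 25.5 CPM per kb, and 6 of them had a log2 fold change above 0 and 1, Cct4, was at -0.01, with a sign that changed between settings. The median was 0.20 (0.12 without knockout heart 3), with the lowest at -0.01 and the highest at 0.31. Their median SD within groups on the log2 scale was 0.16, against 0.37 for the small heat shock proteins and 0.29 for all tested genes. The DNAJB genes were at 0.16 as well, so this is not particular to CCT. Single subunits varied more, with Cct2 at 0.33 and Cct6a at 0.23. The summed level was 433, 373 and 444 normalised CPM in controls 1 to 3 and 427, 462 and 506 in knockouts 1 to 3, with overlap. Cct4, the subunit with the most reads, was at 102, 106 and 111 normalised CPM in controls 1 to 3 and at 88.9, 106 and 121 in knockouts 1 to 3. Cct8 was at 81.6, 70.6 and 83.9 in the controls and 95.1, 93.5 and 105 in the knockouts, with every knockout heart above every control heart (log2 fold change 0.31, adjusted p 0.694 by edgeR). Cct6b, a subunit known from the testis, and Cct8l1 did not pass the low-count filter.

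The J-domain genes are given by class. All 4 DNAJA genes had a log2 fold change above 0, except that Dnaja1 turned below 0 when the totals were taken over nuclear protein-coding genes or when control heart 3, knockout heart 1 or knockout heart 2 was left out. Their median was 0.32 (0.19 without knockout heart 3). Dnaja2, the most abundant of them per length and a co-chaperone of HSC70, was at 159, 158 and 187 normalised CPM in controls 1 to 3 and at 179.7, 220.4 and 265 in knockouts 1 to 3. Control heart 3 lay above knockout heart 1, so the groups overlapped (log2 fold change 0.40, interval -0.08 to 0.88, unadjusted p 0.0902, adjusted p 0.694 by edgeR, 0.25 on the log2 scale without knockout heart 3). Dnaja1, the HSF1-inducible member of the class, was at 46.1, 38.4 and 30.6 in the controls and 40.1, 39.1 and 37.1 in the knockouts (log2 fold change 0.02). Dnaja4 was at 39.4, 39.9 and 47.4 in the controls and 49.5, 53.1 and 47.4 in the knockouts and did not overlap between groups, though its lowest knockout and highest control values both printed as 47.4. Of its 50-base stretches 42.7% occur elsewhere, mostly in Wdr61, which overlaps it on the opposite strand.

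Among the DNAJB genes, 9 of 13 were tested, 4 above 0 and 5 below, with a median of -0.06 (0.12 when no scaling factors were used, a change of sign). Dnajb1, a J-domain protein that HSF1 induces, was at 7.34, 7.46 and 4.89 normalised CPM in controls 1 to 3 and at 6.10, 4.61 and 6.54 in knockouts 1 to 3, and its groups overlapped (log2 fold change -0.18). Dnajb6, which suppresses aggregation and is mutated in a human limb-girdle muscular dystrophy, was at 32.9, 27.9 and 31.3 in the controls and 28.7, 36.8 and 32.1 in the knockouts (log2 fold change 0.08). Dnajb5, a heart and muscle J-domain protein, was at 28.3, 33.3 and 30.4 in the controls and 33.4, 25.4 and 29.3 in the knockouts (log2 fold change -0.06, with a sign that changed between settings). Dnajb4 was at 36.9, 45.0 and 46.2 in the controls and 47.9, 47.6 and 70.2 in the knockouts, where the groups separated by a narrow margin apart from knockout heart 3. Dnajb2 was at 33.1, 33.0 and 36.6 in the controls and 27.6, 31.2 and 28.8 in the knockouts, with the knockouts lower (log2 fold change -0.23, adjusted p 0.694 by edgeR).

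The DNAJC class held the 2 genes with the log2 fold change farthest above 0. Of its 28 genes 24 were tested, 15 above 0 and 9 below, with a median of 0.14 and of 0.02 without knockout heart 3. Dnajc24, needed for the diphthamide modification of elongation factor 2, was at 1.94, 1.66 and 2.45 normalised CPM in controls 1 to 3 and at 1.90, 3.48 and 9.09 in knockouts 1 to 3. The controls and knockout heart 1 were alike and knockout heart 3 stood far above (log2 fold change 1.26, unadjusted p 0.0426, adjusted p 0.694 by edgeR, and 0.39 on the log2 scale without that heart). When the filter on low counts was dropped, this was the 1 chaperone gene of 85 (1.18%) with an adjusted p below 0.05 by edgeR, at 0.025. The share over all genes in that setting is not given here, so the call is no result about chaperones. Dnajc12, a partner of the aromatic amino acid hydroxylases, was at 3.06, 1.198 and 3.31 normalised CPM in controls 1 to 3 and at 2.78, 4.08 and 9.26 in knockouts 1 to 3. It was lowest in control heart 2 and highest in knockout heart 3 (log2 fold change 1.08, 0.41 without the latter).

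Other DNAJC genes differed less by heart. Dnajc25 was at 19.9, 23.6 and 26.5 normalised CPM in controls 1 to 3 and at 15.5, 18.9 and 16.3 in knockouts 1 to 3. Every knockout heart was below every control heart (log2 fold change -0.46, interval -0.89 to -0.04, unadjusted p 0.0366, adjusted p 0.694 by edgeR), and the value without knockout heart 3 was -0.44. Dnajc21, a factor of ribosome biogenesis, was at 40.1, 44.1 and 51.5 in the controls and 33.4, 39.3 and 31.8 in the knockouts (log2 fold change -0.38), also without overlap. Dnajc16, a membrane J-domain protein, was at 5.0, 4.05 and 5.95 in the controls and 6.57, 6.05 and 9.92 in the knockouts and Dnajc9, a histone chaperone, was at 3.55, 3.41 and 4.50 in the controls and 5.42, 4.54 and 6.21 in the knockouts. In both the knockouts were higher in all hearts, by 0.59 and 0.49 on the log2 scale, and by 0.33 and 0.38 without knockout heart 3. Dnajc7, a TPR co-chaperone that passes clients between HSP70 and HSP90, was at 24.8, 37.2 and 43.6 in the controls and 16.9, 35.0 and 17.3 in the knockouts, where 1 heart of each group was far from its fellows (log2 fold change -0.61). Dnajc8, a nuclear J-domain protein, lay between 46.5 and 51.5 in all 6 hearts. Dnajc7 and Dnajc8 were singled out after their values were seen.

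The BAG genes release the nucleotide of HSP70 and route its clients, and their log2 fold changes ran from -0.50 to 0.38. Bag3, the partner of HSPB8 at the Z-disc, was at 96.8, 85.5 and 99.9 normalised CPM in controls 1 to 3 and at 82.0, 114 and 128 in knockouts 1 to 3. Knockout heart 1 was the lowest and the other 2 knockout hearts were above all controls (log2 fold change 0.20, interval -0.29 to 0.69, 0.06 without knockout heart 3). Bag1, an exchange factor of HSC70, was at 101, 94.6 and 108 normalised CPM in controls 1 to 3 and at 74.8, 107 and 103 in knockouts 1 to 3, alike in 5 hearts and lower in knockout heart 1 (log2 fold change -0.09, with a sign that changed between settings). Bag4 was at 5.32, 5.80 and 4.30 in the controls and 3.93, 3.71 and 3.27 in the knockouts, with every knockout heart below every control heart (log2 fold change -0.50, interval -1.01 to 0.01, unadjusted p 0.0548, adjusted p 0.694 by edgeR). Of the 6 BAG genes 4 were above 0 and 2 below, with a median of 0.10 and of 0.01 without knockout heart 3. The ratio of Bag3 to Hspb8 lay between 0.391 and 0.554 in all 6 hearts.

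Hspbp1, which encodes an exchange factor of HSP70, was at 2.98, 2.58 and 3.44 normalised CPM in controls 1 to 3 and at 3.52, 4.69 and 5.82 in knockouts 1 to 3. Every knockout heart was above every control heart, by a small margin in knockout heart 1 (log2 fold change 0.64, interval 0.03 to 1.24, unadjusted p 0.0413, adjusted p 0.694 by edgeR, 0.44 without knockout heart 3). Hspbap1 and Dnajc17 were the lowest genes to pass the filter, Hspbap1 at 1.85, 1.66 and 1.72 in the controls and 1.02, 1.82 and 2.16 in the knockouts and Dnajc17 at 1.94, 2.12 and 1.32 in the controls and 2.57, 2.12 and 3.05 in the knockouts. The 11 untested genes lay far below it, with at most 3 counts in any library: Hspb9, Dnajc22, Dnajb7, Dnajb8 and Dnajc5g had 0 counts in all libraries, and Cct6b, Cct8l1, Dnajb3, Dnajb13, Dnajc5b and Dnajc6 had 6 to 11 counts over all 6 libraries. Several of these are known from testis, nerve or cilia.

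**Figure D3:**
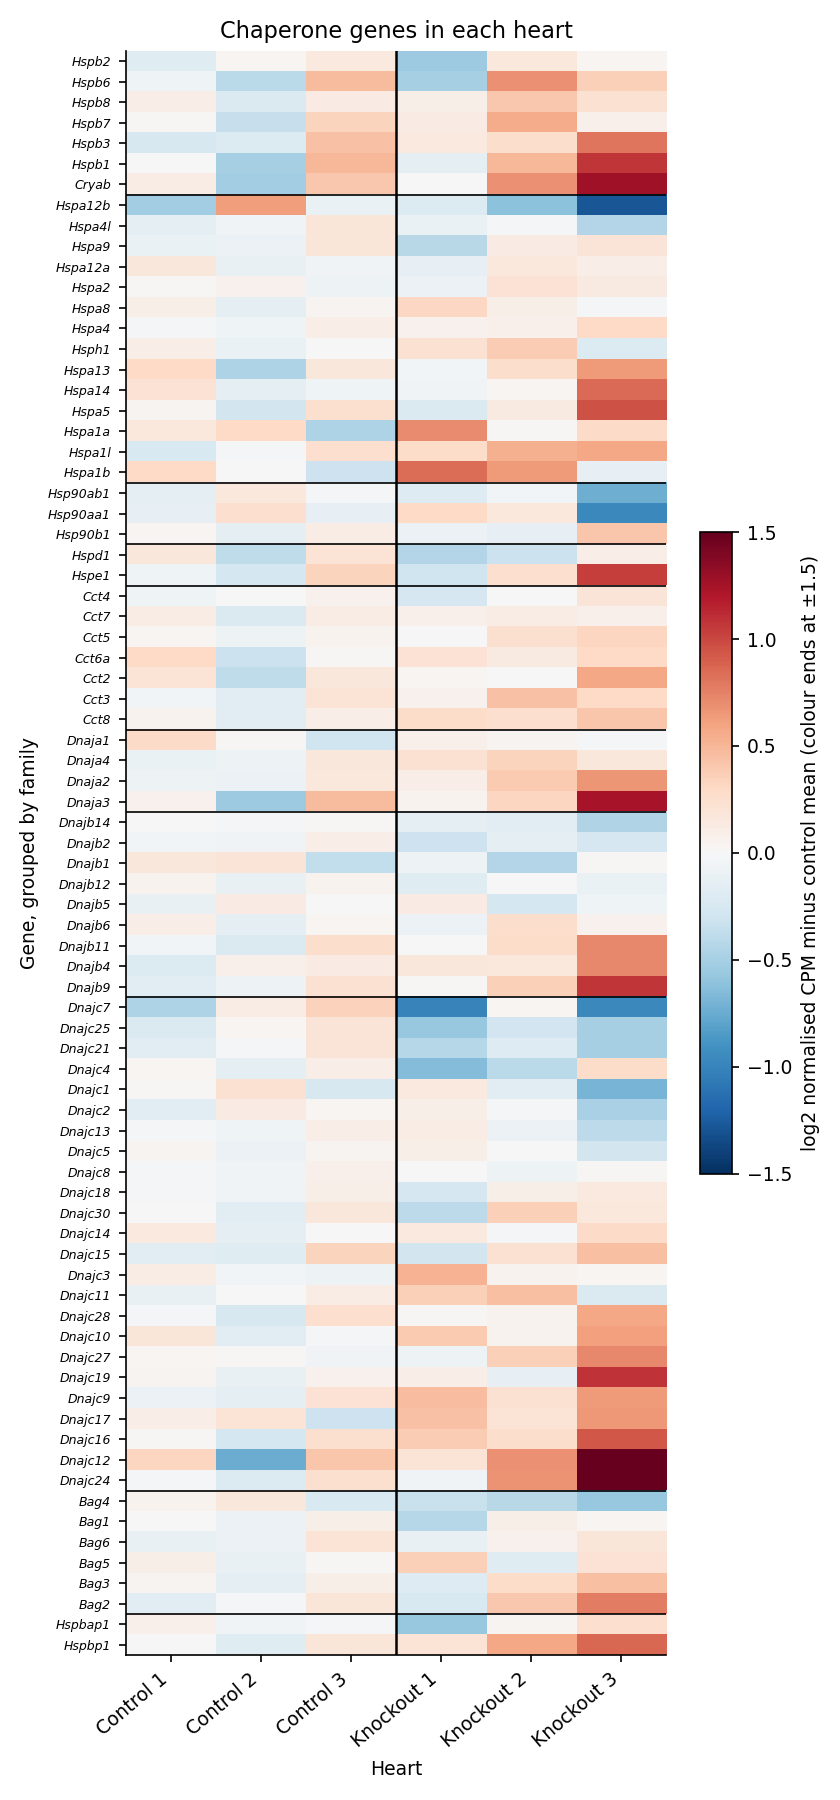
Each row is 1 of 78 tested chaperone genes, grouped by family in the order of the fold change plot, and each column a heart; colour is log2 normalised CPM minus the control mean, with the scale ending at 1.5 either way. In the knockout heart 3 column Cryab and Hspa5 have their highest level, and Hsp90ab1 and Hsp90aa1 their lowest.

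No gene of the classical HSF1 set passed the test, and neither did any other of the 13717 genes by edgeR. These 13 genes (Hspa1a, Hspa1b, Hspa8, Hsp90aa1, Hsp90ab1, Hspb1, Hsph1, Hspd1, Hspe1, Dnaja1, Dnajb1, Bag3 and Cryab) were all tested, 9 above 0 and 4 below, with a median of 0.15, the same as over all 79 genes. All had an adjusted p of at least 0.694 by edgeR, and in none were the groups separate. Of all tested genes, 6.26% had every knockout heart above every control heart and 5.82% every one below. With 13 genes, these absences are no result about the set. Their summed level was 3224, 3253 and 3488 normalised CPM in controls 1 to 3 and 3199, 3698 and 3454 in knockouts 1 to 3, with overlap. The transcripts of the factors themselves were at 11.0 normalised CPM in control and 9.78 in knockout hearts for Hsf1 and at 18.3 and 17.6 for Hsf2, and neither passed the test. The letters counted as a heat shock element were found in 17.0% of all genes in the promoter table. A match of letters does not show that an element works. Of the 19 tested genes with such a match in the promoter window, 18 had a log2 fold change above 0, with a median of 0.23. Of the 44 without one 28 did, with a median of 0.14, and without knockout heart 3 the counts were 16 of 19 and 23 of 44. The run of 3 units did not show this split: 3 of 4 tested genes with it and 43 of 59 without it were above 0, with medians of 0.12 and 0.21, and without knockout heart 3 the counts were 2 of 4 and 37 of 59. Among all tested protein-coding genes with a promoter entry, the shares above 0 were 55.2% with the element and 54.0% without it, and 49.1% with the run and 54.2% without it. No test was made of these splits, in which Hspd1 and Hspe1 share their element and Hspa1a and Hspa1b are near copies. The genes with an element leave out part of the HSF1 set. None was found for Hsp90ab1 (log2 fold change -0.30), Dnajb1 (-0.18), Hsp90aa1 (-0.08), Hspa8 (0.13) or Cryab (0.69).

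**Figure D4:**
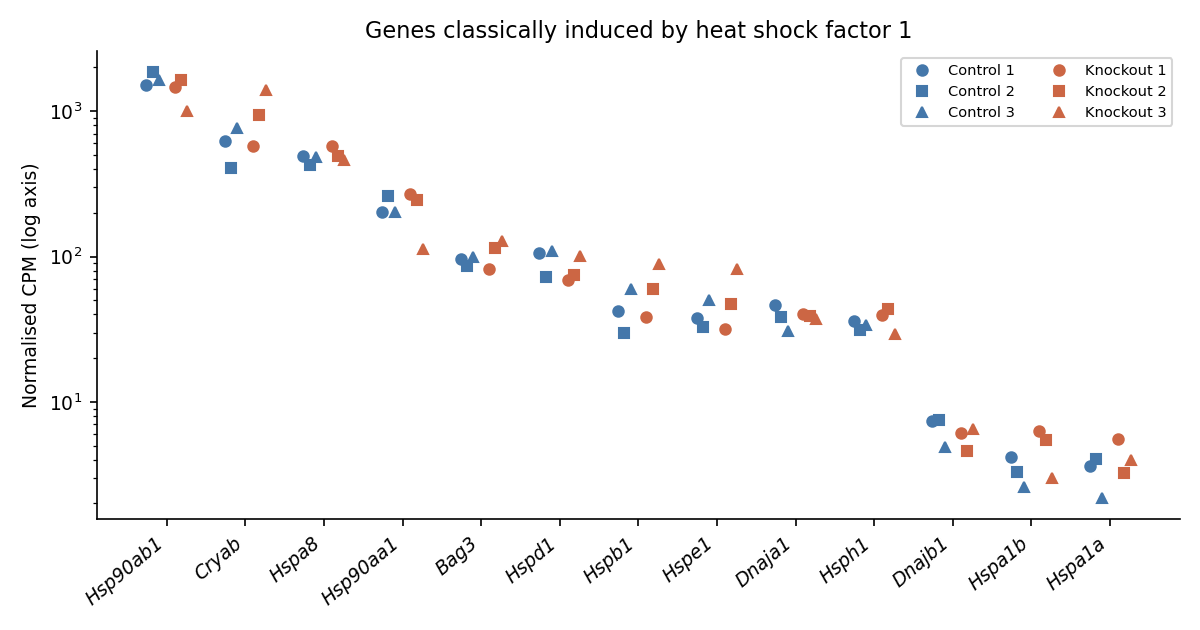
Normalised CPM (log axis) of the 13 genes classically induced by heat shock factor 1 in each heart, controls in blue and knockouts in orange, with a marker shape for each heart number. Levels run from Hsp90ab1, at 1004 to 1859, down to Hspa1a, at 2.18 to 5.56, and the groups overlap in every gene.

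The libraries themselves differed in ways that ran alongside these levels. Loci of the TEC class, an annotation class of mostly unspliced transcripts that await experimental proof, summed to 2160, 2497 and 1706 deposited CPM in controls 1 to 3 and to 2313, 1586 and 669 in knockouts 1 to 3. Ordered from high to low, the summed small heat shock level, the CCT level and the level of all 79 genes each ran knockout 3, knockout 2, control 3, control 1, knockout 1 and control 2, which is the order of the TEC sum reversed. The other families did not follow it exactly. HSP70, DNAJA, DNAJB, BAG and the HSP60 and HSP10 pair were also highest in knockout heart 3, DNAJC was highest in control heart 3, and HSP90 was highest in control heart 2 and lowest in knockout heart 3. Malat1, the mitochondrial rRNA share and the TMM scaling factor were ranked too, and none gave exactly the TEC order or its reverse. In the sum of all 79 genes, knockout heart 1 and control heart 2 were nearly equal (5950 and 5946 normalised CPM). The orders include hearts of both groups, and within the controls heart 2 had the highest TEC sum and the lowest small heat shock sum. Chaperone genes made up 0.479% of the deposited counts in control heart 2 and 0.858% in knockout heart 3, the lowest and highest of the 6. The part of these library differences in the chaperone levels was not tested.

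**Figure D5:**
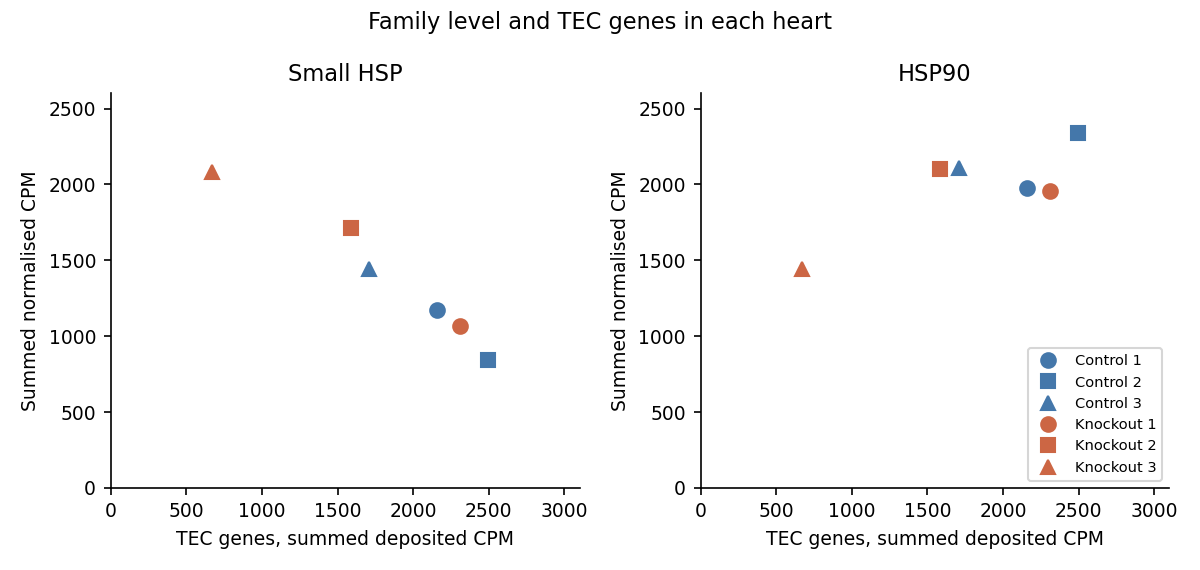
Summed normalised CPM of the small heat shock genes (left) and of the HSP90 genes (right) against the summed deposited CPM of TEC loci, 1 point per heart, controls in blue and knockouts in orange. On the left the level is lower in hearts with more TEC counts, from 2081 in knockout heart 3 to 842 in control heart 2; on the right knockout heart 3 is the lowest at 1444.

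Marker genes of other cells moved in part with the groups. The 6 fibroblast markers summed to 602 to 702 normalised CPM in the controls and 714 to 884 in the knockouts, with all 6 above 0 on the log2 scale, and the 4 erythroid markers summed to 2498 to 3904 and 2957 to 5404. The 5 macrophage markers, all above 0 on the log2 scale, summed to 67.9 to 92.4 and 90.1 to 137, and the 5 smooth muscle markers, 4 of them below 0, summed to 506 to 628 and 403 to 689.5. The 3 neutrophil markers summed to 2.72 to 5.16 in the controls and 5.32 to 11.04 in the knockouts, without overlap. The thymus markers Ptcra and Rag1 were at 0 in all libraries. Knockout heart 1, which had the lowest cardiomyocyte sum and the highest fibroblast and erythroid sums, was also the lowest heart for 21 of the 79 chaperone genes (26.6%, beside 15.4% of all tested genes), among them Hspb2, Hspb6, Hspa9, Hspd1, Bag1 and Bag3. The part of cell makeup in these values was not tested.

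Chaperones outside the name rule looked much the same. Of a list of 53 further genes (Tcp1, prefoldins, HSP90 and HSP70 co-chaperones, mitochondrial and ER chaperones and heat shock factors), 50 were tested, none passed the test, and 36 were above 0 and 14 below, with a median of 0.16 and of 0.07 without knockout heart 3. Grpel1, the mitochondrial exchange factor of mortalin, was the 1 gene with an unadjusted p below 0.05. It was at 5.40, 5.07 and 6.61 normalised CPM in the controls and 7.45, 10.1 and 15.9 in the knockouts. The groups did not overlap (log2 fold change 0.97, and 0.62 without knockout heart 3). Grpel2 and Ptges3, the HSP90 co-chaperone p23, were also above every control in all knockout hearts. Calr, which encodes calreticulin, St13 and Unc45a were below in all of them. For 50 genes these counts, 1 at an unadjusted p below 0.05, 3 above and 3 below, are near the background shares given above. Hsbp1, which encodes a binding partner of HSF1, was at 27.7, 22.3 and 32.9 in the controls and 27.6, 35.8 and 71.0 in the knockouts, another gene with its highest value in knockout heart 3, named after its values were seen.

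Shared sequence limits what can be read from single members. Of the tested genes 14 have over 20% of their 50-base stretches elsewhere in the annotated transcripts, while 37 of the 90 have none, and the median over tested genes is 1.93%. Among the genes named here the largest shares were 71.4% for Hspa1l, 66.3% for Hspa1a and 62.3% for Hspa1b. Hspb1 followed at 50.1% (mostly in Hsp25-ps1), then Hsp90aa1 and Dnaja4 with the shares given above. Hspd1 was at 42.1% and Hspa8 at 39.4% (mostly in Gm15459). Adding the counts of the nearest copy gave log2 fold changes of 0.51 for Hspb1 and 0.13 for Hspa8, and no direction changed in the 5 sums made.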

How the data were processed

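Whole-heart RNA of 3 control and 3 knockout mice was sequenced, with 12270796 to 15141525 counts per library. Per the labels' protocols, TRIzol RNA was primed with anchored oligo(dT) and tagmented, with no strand step. Per the submitters' processing notes, the build was mm39; they also name STAR 2.7.11, Subread 2.1.1, featureCounts, SAMtools 1.22.1 and edgeR 4.0.16, with no roles. The sources used here do not give the annotation or the settings for strand and multimapping. The authors' deposited table holds estimated counts, 21.3% to 22.7% of detected genes with fractions, and CPM. The authors' deposited CPM equalled the count over the column total and carried no scaling factor.

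Counts were rounded and scaled by TMM. Every gene reaching 1 CPM in 3 or more libraries entered the quasi-likelihood test of edgeR 4.0.16 under R 4.3.3, with two-sided p-values adjusted by Benjamini-Hochberg over all 13717 genes and a threshold of 0.05. Printed gene levels are TMM-normalised CPM, fold changes are knockout over control, and ± is the SD over 3 hearts. The steps were tested on simulated data. Alternatives were DESeq2 1.42.0, limma-trend on log2(CPM + 0.5) (limma 3.58.1), other scalings, no filter, a replicate block and leaving out each heart. Summing near-identical copies was added after seeing the data. Exon lengths, overlaps and 50-base matches came from GENCODE M21 (GRCm38), matched by gene ID for all 90 genes.

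Genes named were the 12 with the highest mean level over all 6 hearts, the 10 with the smallest p, the 3 with the largest spread, and the lists of HSF1-induced, small heat shock and organelle chaperones, 40 in all, with the members beside the filter. Bag1, Cct8, Dnaja4, Dnajb2, Dnajb4, Dnajc7, Dnajc8 and all ratios were added after their values were seen. The members and lists were chosen with earlier results of these data known. No 2 libraries of the same group agreed within sampling noise. 1 of the 79 tested genes is counted but not reported here by name or drawn.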

Additional observations from a re-analysis of the deposited data

How the results depend on the processing

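Depth of 12270796 to 15141525 counts and 3 hearts a group limit what could be called. No chaperone gene passed the adjusted threshold by edgeR under the other scalings, by DESeq2, by limma-trend, with the replicate block or without any 1 heart. Dropping the filter on low counts gave 133 genes and 1 of 85 chaperone genes (1.18%), Dnajc24 (log2 fold change 1.29, adjusted p 0.025, and 0.271 to 0.99995 over its other alternatives). DESeq2 gave 15 genes, and leaving out 1 heart gave 0 to 3. Same-numbered hearts deviated together for numbers 2 (r = 0.445) and 3 (r = 0.583) but not 1 (r = -0.113). Between differently numbered hearts r ran from -0.697 (control 2 with knockout 3) to 0.572 (control 2 with knockout 1). The numbers were not taken as pairs. With the replicate block 5 genes and no chaperone gene were called. Without scaling factors all genes shifted by 0.17, and the medians were 0.31 for all chaperones, 0.30 for HSP70 and HSP110, 0.35 for CCT, 0.47 for DNAJA, 0.12 for DNAJB, 0.30 for DNAJC and 0.26 for BAG, with 12 genes below 0. There Cct4 (0.15), Dnajb1 (0.012), Dnajb5 (0.12), Hspa9 (0.13), Hsp90aa1 (0.063), Hspb2 (0.051), Bag1 (0.053), Dnajc8 (0.14) and Hspbap1 (0.098) changed sign. By limma-trend, with all genes shifted by 0.14, the medians were 0.30, 0.29 for HSP70 and HSP110, 0.36 for CCT, 0.47 for DNAJA, 0.089 for DNAJB and 0.29 for DNAJC, with 14 genes below 0, and Cct4 (0.14), Dnajb5 (0.089), Hspa9 (0.12), Hspb2 (0.038), Bag1 (0.052), Dnajc8 (0.14) and Hspbap1 (0.030) changed sign. Both settings leave out the factors that differ between libraries. With nuclear protein-coding totals Dnaja1 was at -0.013, and without the filter Cct4 was at 0.014, Hspa9 at 0.0077, Dnajc8 at 0.0065 and the DNAJB median at 0.10. Leaving out 1 heart moved the CCT median between 0.042 and 0.28 and the DNAJC median between 0.021 and 0.17. Over the same fits, signs changed for Hsp90aa1 (-0.31 to 0.22), Cct2 (-0.0074 to 0.30), Cct4 (-0.12 to 0.098), Dnaja1 (-0.12 to 0.16), Hspa9 (-0.13 to 0.15), Hspb2 (-0.25 to 0.089), Dnajb5 (-0.16 to 0.017), Dnajb6 (-0.028 to 0.16), Hspb6 (-0.068 to 0.49), Hspe1 (-0.025 to 0.69), Dnajc19 (-0.0078 to 0.68), Hspa5 (-0.049 to 0.59), Hsp90b1 (-0.11 to 0.17), Bag1 (-0.20 to 0.054), Dnajc8 (-0.054 to 0.021) and Hspbap1 (-0.31 to 0.19). The other named members and family medians kept their direction under these alternatives, other than HSP90 (0.063 without factors, 0.0066 without control heart 2) and the HSP60 and HSP10 pair (-0.062 without control heart 2, -0.22 without knockout heart 3). The cause of these changes was not tested.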
